A study of Mus musculus with 8 samples.

Results

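Chromatin accessibility is described here in and around 8 genes of fatty acid oxidation and its control: Cpt1a, Cpt1b and Cpt2 of the carnitine shuttle, the acyl-CoA dehydrogenases Acadm, Acadl and Acadvl, the trifunctional protein subunit Hadha, and the kinase gene Pdk4. A deposited peak was assigned to a gene when its centre lay inside the gene's GRCm38 span or within 50 kb of it. That gave 104 of the 134407 deposited peaks, each 201 bp wide. For 25 of the 104 the nearest protein-coding gene was the assigned one, and 79 lay nearer to another gene, which is named beside each such peak. The samples were wild-type E14 mouse embryonic stem cells, an established line, grown on gelatin in serum with LIF. The 4 control samples had no inhibitor, and the 4 paused samples were exposed to 200 nM INK128, an inhibitor of the kinase mTOR, for 24 h to induce pausing, a reversible slowing of growth in culture. All 8 samples were ATAC-seq libraries from 50000 live cells each.

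Fatty acid oxidation breaks fatty acids down in mitochondria. CPT1 loads a long-chain acyl group onto carnitine at the outer mitochondrial membrane, a carrier moves it inward, and CPT2 returns it to coenzyme A. An acyl-CoA dehydrogenase matched to the chain length then begins each turn of the spiral, and the trifunctional protein carries out the later steps for long chains. PDK4 phosphorylates and inhibits pyruvate dehydrogenase, which limits the entry of glucose carbon into the tricarboxylic acid cycle, and its gene is a well-known target of PPAR factors and of fasting signals. ATAC-seq uses the transposase Tn5, which cuts DNA where nucleosomes and other proteins leave it open, so the number of reads in a peak is a measure of how open that DNA was. It measures neither transcripts nor fatty acid use.

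The deposited values were whole reads divided by 1 factor per library. Reads in peaks numbered between 4434037 (control 3) and 21161767 (control 1) per library, so that a value of 100 rested on more reads in control 1 than in any other library. A count of 3 reads corresponded to a value of 1.04 in control 1 and of 5.08 in control 3. Of the 8 markers of embryonic stem cells listed, 6 had a peak within 1 kb of a gene end (Pou5f1 and Dppa5a had none), with summed values of 963 to 1053 in the control samples and 1171 to 1324 in the paused samples. Peaks at the ends of fibroblast markers were also present (5 of 6 genes, 435 to 522 in control and 510 to 574 in paused samples), as were those of primitive endoderm (3 of 5, 237 to 283 and 261 to 303) and trophoblast markers (4 of 5, 235 to 276 and 284 to 358). Open ends alone did not separate these cell types, and the part of any cell mixture in the results was not tested. In these bulk samples, fewer cells with an open site and less opening per cell cannot be told apart.

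The promoter sequences below show which bases before the start lay inside the deposited peak at 5 of the genes, because the values at the starts come from peaks that overlap these stretches in part. Each line gives the 250 bases before the annotated start, 5′ to 3′ on the gene's strand (the minus strand for all 5), from RefSeq on GRCm38.p6. Capitals mark the bases inside the peak, and the rest of each 201 bp peak lies outside the printed stretch.
Pdk4, chr6:5496279-5496528: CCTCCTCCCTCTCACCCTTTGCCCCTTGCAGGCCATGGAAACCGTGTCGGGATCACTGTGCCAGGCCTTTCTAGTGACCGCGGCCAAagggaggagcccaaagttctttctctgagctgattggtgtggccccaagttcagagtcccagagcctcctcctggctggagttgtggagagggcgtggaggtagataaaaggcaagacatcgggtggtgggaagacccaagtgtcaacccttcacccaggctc
Cpt2, chr4:107923590-107923839: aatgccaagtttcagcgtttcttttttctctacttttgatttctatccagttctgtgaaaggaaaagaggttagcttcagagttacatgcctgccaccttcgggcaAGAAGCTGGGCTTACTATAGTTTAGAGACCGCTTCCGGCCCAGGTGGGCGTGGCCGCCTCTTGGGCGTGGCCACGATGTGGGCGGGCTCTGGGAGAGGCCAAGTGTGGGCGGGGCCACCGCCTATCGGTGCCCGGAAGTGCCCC
Acadm, chr3:153944644-153944893: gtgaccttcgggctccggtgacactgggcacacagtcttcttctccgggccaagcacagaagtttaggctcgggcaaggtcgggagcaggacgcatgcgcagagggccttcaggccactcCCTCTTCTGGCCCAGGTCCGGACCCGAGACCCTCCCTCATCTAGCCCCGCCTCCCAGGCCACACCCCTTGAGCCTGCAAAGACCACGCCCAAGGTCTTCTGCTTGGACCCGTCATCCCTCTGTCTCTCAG
Acadvl, chr11:70015429-70015678: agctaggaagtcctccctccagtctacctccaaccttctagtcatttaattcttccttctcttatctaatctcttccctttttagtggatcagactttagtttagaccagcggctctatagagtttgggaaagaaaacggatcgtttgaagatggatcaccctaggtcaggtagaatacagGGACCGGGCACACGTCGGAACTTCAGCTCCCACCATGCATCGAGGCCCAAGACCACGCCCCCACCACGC
Hadha, chr5:30154981-30155230: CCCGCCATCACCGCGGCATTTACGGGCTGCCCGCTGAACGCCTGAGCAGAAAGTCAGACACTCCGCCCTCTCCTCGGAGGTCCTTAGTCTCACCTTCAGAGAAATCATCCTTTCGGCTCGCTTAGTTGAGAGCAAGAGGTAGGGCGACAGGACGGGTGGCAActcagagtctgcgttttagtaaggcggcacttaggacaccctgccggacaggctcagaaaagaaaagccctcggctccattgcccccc

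The peak covered the far end of the Pdk4 stretch (87 bases) and of the Hadha stretch (162 bases), leaving the bases next to the start outside it. In Cpt2 (144 bases), Acadm (130 bases) and Acadvl (69 bases) it reached up to the start. The upstream stretches of Cpt1a and Acadl held no peak base, and Cpt1b was not matched in the promoter table. GC content was between 49.6% in Acadvl and 68.0% in Acadl among the 7 matched genes, beside a median of 52.4% over 32851 promoters. Of 8 motifs searched on both strands over the window from 250 bases before to 50 after the start, only the core nuclear receptor site AGGTCA matched: it was in 3 of 7 genes (Cpt1a, Acadm and Acadvl), against 16.3% of all promoters, and outside the peak in each. The PPAR/RXR direct repeat, which is that core site written 2 times with 1 base between, was in none of the 7 and in 0.0396% of all promoters. No match was found in the 7 for the Esrr site TCAAGGTCA, which also contains the core site (0.423% of all promoters), the Foxo site GTAAACA (3.65%), the E-box CACGTG (7.15%), the palindromic Nrf1 site (0.971%), the Smad box GTCTAGAC (0.213%) or the cAMP response element TGACGTCA (1.79%). A match or its absence describes only the letters of these windows.

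Accessibility around the 8 genes changed at few single peaks, and the calls nearest to one of the genes themselves were both at Pdk4. Of the 104 peaks, 102 passed the minimum mean value of 10, and 8 of these were higher in the paused samples and 2 lower (limma-trend on log2(value + 1), Benjamini-Hochberg adjusted p under 0.05 over all tested peaks). Over all tested peaks the shares were 11.0% higher and 2.91% lower, so the 7.84% and 1.96% around these genes lay below both. The median log2 change was 0.13 around the 8 genes and 0.10 over all 127402 tested peaks. The 4 control values did not overlap the 4 paused values at 14 peaks that were higher and 4 that were lower, or 17.6%, beside 17.4% of all tested peaks. Without control 3, paused 3 or paused 4, the higher peaks numbered 5, 5 and 4. The lower peaks numbered 1 without control 2 or paused 2, 3 at most when another library was left out, and 0 without control 4 or paused 4. These p-values measure the spread between the deposited samples, which may be technical, since the labels do not say that they came from separate cultures.

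The changes of single peaks also went with their strength. Among the 31 tested peaks with a mean value under 30, the median log2 change was -0.093, among the 42 with a mean of 30 to 100 it was 0.13, and among the 29 stronger ones it was 0.20. The same medians over all tested peaks were -0.040, 0.13 and 0.20. A pair of weak peaks was below the minimum: one inside Cpt1b (chr15:89421345-89421545), with means of 12.4 ± 5.95 (SD, n = 4) in the control samples and 6.72 ± 0.936 in the paused samples, and one inside Acadl (chr1:66846106-66846306), at 13.6 ± 4.49 and 6.11 ± 2.12.

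**Figure D1:**
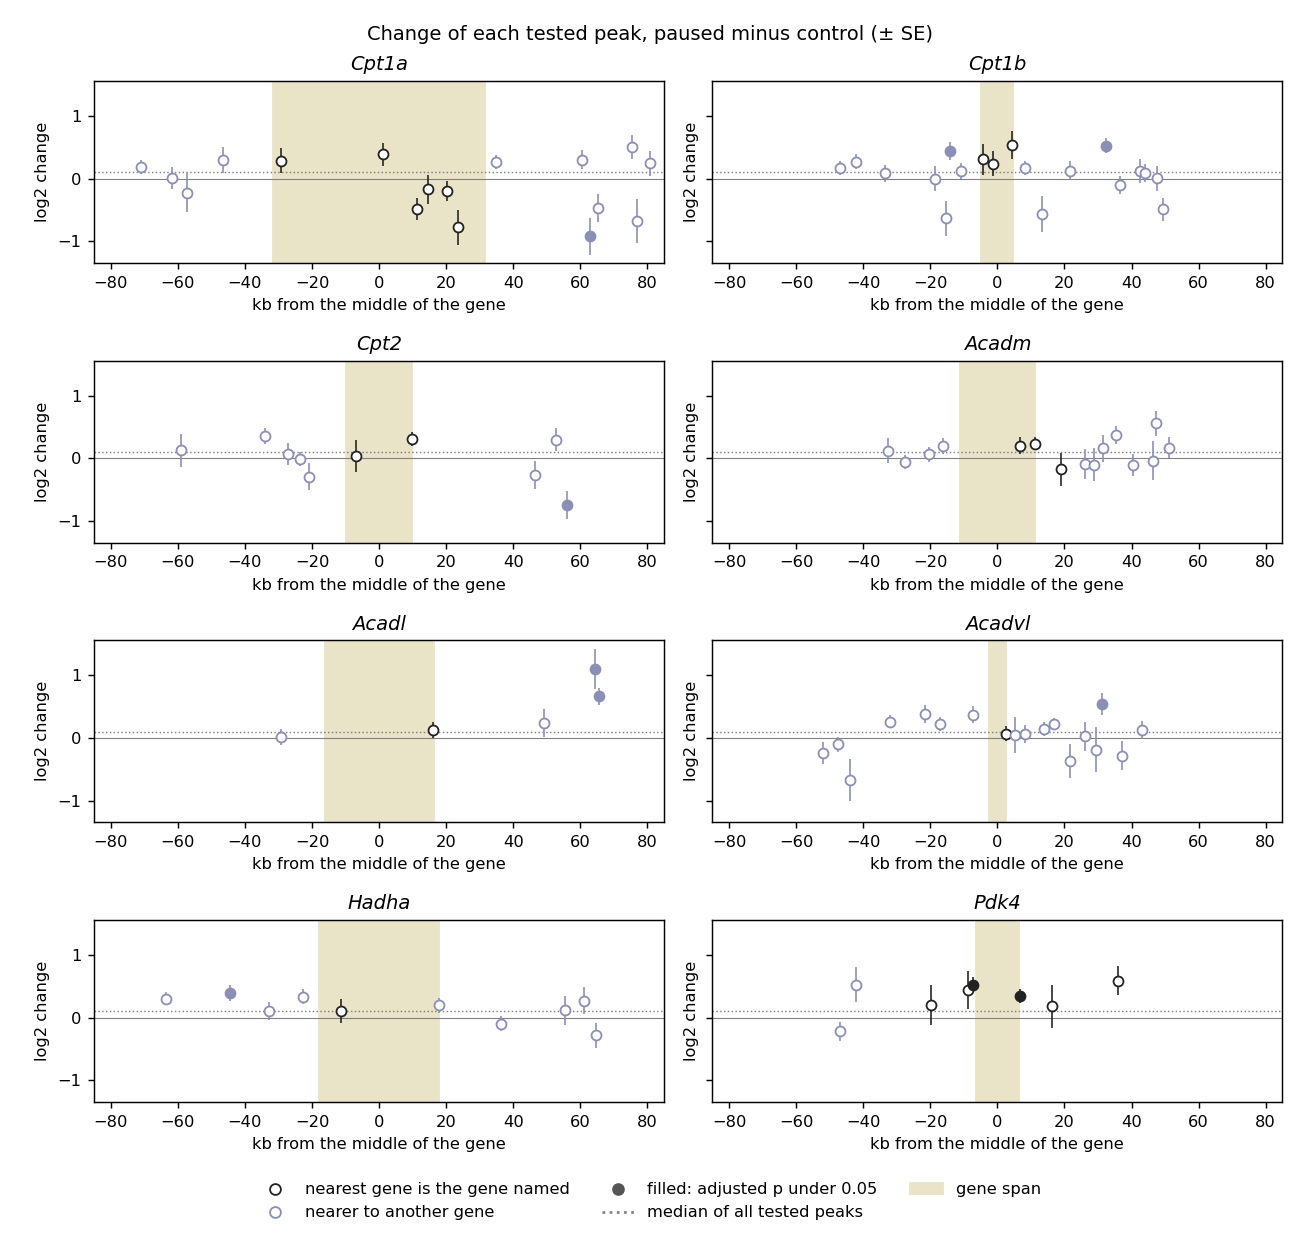
Log2 change of every tested peak, paused minus control on the log2(value + 1) scale, against its position in kb from the middle of the gene. Each gene has one panel, with called peaks filled and peaks nearer to another gene drawn in another colour. The Pdk4 panel holds 2 called peaks next to the gene, and the called peaks of the other panels lie nearer to other genes.

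Pdk4 had the only called peaks whose nearest gene was one of the 8, and the largest change in summed accessibility among them. Of the 23 tested peaks nearest to one of the 8 genes, these 2 called peaks were 8.70%, and none was lower. That lay below the 11.0% higher and 2.91% lower of all tested peaks. None of the 8 peaks in the Pdk4 window lay inside the gene (chr6:5483351-5496278, minus strand), and 6 had Pdk4 as their nearest gene. The strongest (chr6:5482397-5482597) was centred 854 bp beyond the gene's 3′ end, 13781 bp downstream of the start. Its values were 203, 193, 268 and 225 in control 1 to 4 and 251, 312, 371 and 351 in paused 1 to 4. Paused 2, 3 and 4 lay above every control, while paused 1 was below control 3, so the groups overlapped. The means were 222 ± 33.0 and 322 ± 52.7 (SD, n = 4 each), a log2 change of 0.53 (SE 0.12, limma-trend adjusted p = 0.00250). This peak rose under all 17 other settings tried for single peaks, with adjusted p between 1.49e-04 and 0.0420.

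The peak at the Pdk4 start (chr6:5496442-5496642) was centred 264 bp upstream. Values were 186, 197, 218 and 213 in the control samples and 254, 222, 292 and 276 in the paused samples. All 4 paused samples were above all 4 controls, with paused 2 close to control 3. From 204 ± 14.9 to 261 ± 30.1 (SD, n = 4 each), the log2 change was 0.35 (SE 0.11, limma-trend adjusted p = 0.0298). The call was lost without control 1 (adjusted p = 0.0905), control 2 (0.0523), paused 3 (0.0915) or paused 4 (0.102), and with 4 other scalings: limma-trend after TMM rescaling (0.136) or loess correction (0.380), edgeR with TMM (0.0941) and DESeq2 (0.209). In the authors' deposited table the false discovery rates of the 3′ and the start peak were 5.73e-04 and 0.0120.

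The other 4 peaks with Pdk4 as the nearest gene were weaker, and none passed the test. The largest difference among them was at a peak 29457 bp upstream of the start (chr6:5525635-5525835), with 23.2, 32.2, 20.3 and 16.2 in the control samples and 23.1, 47.3, 34.1 and 36.3 in the paused samples. Paused 1 was as low as control 1, and the log2 change was 0.59 (SE 0.24, limma-trend adjusted p = 0.0873, called without control 2 at 0.0396 or paused 1 at 0.0339). Values at the other 3 were between 12.8 and 19.0 in either group mean, with log2 changes of 0.18 to 0.44. A peak on the far side, nearer to Asb4 (chr6:5442739-5442939), stood at 78.0 ± 9.40 in control and 67.2 ± 9.57 in paused samples (log2 change -0.21, limma-trend adjusted p = 0.360).

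**Figure D2:**
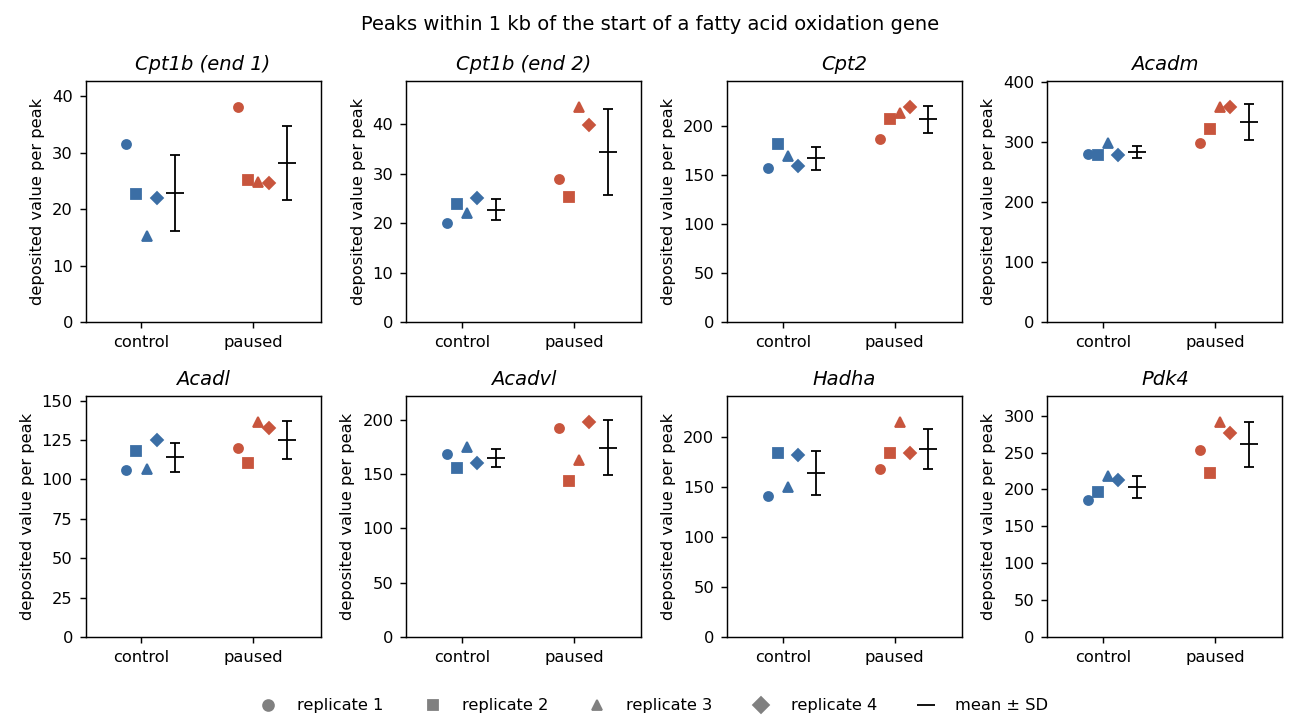
Deposited value of each of the 8 peaks at the starts (for Cpt1b, at the ends) of the genes in each of the 4 control and 4 paused samples, with the mean and SD beside the points. At Pdk4, Cpt2 and the Cpt1b end at 89425449 all paused samples lie above all controls, and the groups overlap in the other panels. Over all tested peaks within 1 kb of a protein-coding gene's start, the groups did not overlap at 16.6%, in either direction. The Cpt1b end peaks do not belong to that set.

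At the gene starts, 7 of the 8 genes had a peak within 1 kb, 8 peaks in all, with 2 for Cpt1b, whose annotated start was not in the promoter table and for which both ends of the gene were used. Of these 8 peaks, the Pdk4 one rose and none fell, beside 11.0% higher and 0.666% lower among all tested peaks within 1 kb of a protein-coding gene's start. All 8 had a positive log2 change, as did 86.4% of all start peaks. Their median log2 change was 0.27, against 0.18 over all start peaks, and 4 were higher and none lower at an unadjusted limma-trend p under 0.05, beside 31.7% and 1.62% of all start peaks. The sets are not alike, because the 2 Cpt1b end peaks lay 6490 and 4378 bp from the nearest start used for all start peaks. Their log2 changes were 0.31 and 0.55, and the larger was among the 4. At the other genes the log2 changes were 0.072, 0.13, 0.20, 0.23, 0.31 and 0.35.

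Among the carnitine shuttle genes, no peak nearest to Cpt1a, Cpt1b or Cpt2 passed the test. Over all 8 genes, the 23 tested peaks nearest to the gene itself included 7 higher and 2 lower at an unadjusted limma-trend p under 0.05, beside 21.1% and 7.61% of all tested peaks. Cpt1a encodes the CPT1 form of liver and many other tissues and is the rate-limiting step of long-chain fatty acid entry. Its gene (chr19:3322326-3385735, plus strand) held 6 peaks, the closest 1552 bp downstream of the annotated start (chr19:3324753-3324953, from 39.3 ± 9.96 to 48.3 ± 12.3, SD, n = 4 each, log2 change 0.29, limma-trend adjusted p = 0.362). The peaks farther into the gene had changes of both signs. One at 32031 bp from the start was at 38.5 ± 9.07 and 49.7 ± 2.73 (log2 change 0.39, limma-trend adjusted p = 0.152). One at 41990 bp was at 52.6 ± 8.80 and 37.2 ± 4.39 (-0.48, limma-trend adjusted p = 0.0649). At 54194 bp, the weakest of the 6 peaks, with 24.9 ± 3.57 and 15.0 ± 5.93, had all paused samples below all controls (-0.78, limma-trend adjusted p = 0.0586). Thus 4 of the 6 intragenic peaks had a negative change.

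The strongest peak in the Cpt1a window was 77 bp from the start of the neighbouring gene Tesmin (chr19:3388680-3388880), at 285 ± 41.1 in control and 341 ± 31.6 in paused samples (log2 change 0.26, limma-trend adjusted p = 0.105, called without control 2 at 0.0336). The peak that fell lay 2412 bp from Gal, the gene of the neuropeptide galanin (chr19:3416856-3417056). It had 16.2, 32.2, 25.4 and 36.7 in the control samples and 12.7, 7.89, 23.3 and 14.1 in the paused samples. Paused 3 overlapped the controls and the others were below all of them, with a log2 change of -0.92 (SE 0.29, limma-trend adjusted p = 0.0302). The largest count was 47 reads, in control 1, and the call was lost with DESeq2 (adjusted p = 0.0988), with edgeR on the deposited factors (0.0626), and without control 2 (0.0897), control 3 (0.0525), control 4 (0.125), paused 1 (0.0598), paused 2 (0.118) or paused 4 (0.0565).

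Cpt1b encodes the muscle form of CPT1 (chr15:89416405-89425862). Both of its end peaks were weak. At chr15:89425449-89425649 the values were 20.1, 23.9, 22.0 and 25.0 in the control samples and 28.8, 25.2, 43.4 and 39.8 in the paused samples. No paused sample was below a control, although paused 2 exceeded control 4 by little, and the log2 change of 0.55 (SE 0.22) had a limma-trend adjusted p of 0.0947 (0.0342 with edgeR on the deposited factors). At the other end (chr15:89416893-89417093) the means were 22.9 ± 6.65 and 28.2 ± 6.60 (SD, n = 4 each, log2 change 0.31, limma-trend adjusted p = 0.418).

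Both peaks that rose in the Cpt1b window lay nearer to other genes. One was 269 bp from Mapk8ip2, which encodes a scaffold of JNK signalling (chr15:89453542-89453742), with 131, 123, 119 and 134 in the control samples and 196, 175, 169 and 192 in the paused samples. The groups were well apart, at 126.6 ± 7.03 and 183 ± 13.0 (SD, n = 4 each, log2 change 0.53, SE 0.12, limma-trend adjusted p = 0.00197). It was lost only after loess correction (adjusted p = 0.0607) among the 17 other settings. The second, inside the meiotic gene Syce3 (chr15:89406785-89406985), went from 60.8 ± 5.52 to 83.3 ± 11.2 (log2 change 0.44, limma-trend adjusted p = 0.0412). Its call was lost in 11 of 17 settings, including leaving out any single library except paused 4 (log2 change 0.38 to 0.48, adjusted p = 0.0580 to 0.121).

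Cpt2 encodes the inner-membrane enzyme of the shuttle (chr4:107903982-107923589, minus strand). Its start peak (chr4:107923533-107923733, which holds the capitals of the Cpt2 line above and also bases inside the gene) was also the strongest in its window. Values were 157, 182, 169 and 159 in the control samples and 187, 207, 213 and 219 in the paused samples. Every paused sample was above every control, but the log2 change of 0.31 (SE 0.11, from 167 ± 11.3 to 206 ± 13.9) had a limma-trend adjusted p of 0.0624. It was called without control 2 (adjusted p = 0.0479), without paused 1 (0.0475) and with a minimum mean of 50 (0.0401), and was at 0.229 to 0.605 with the 4 other scalings. The authors' deposited table gave this peak a false discovery rate of 0.0499. The single peak inside Cpt2 (chr4:107906690-107906890) was at 20.9 ± 3.95 and 21.8 ± 5.99 (log2 change 0.038).

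In the Cpt2 window, 1 peak fell. It lay inside Slc1a7, a glutamate transporter gene, 46350 bp upstream of the Cpt2 start (chr4:107969839-107970039). Values were 36.6, 28.7, 35.6 and 55.8 in the control samples and 24.2, 25.2, 24.8 and 16.4 in the paused samples. The groups did not overlap, and the log2 change was -0.74 (SE 0.22, limma-trend adjusted p = 0.0226). Without control 4, its highest sample, the change was -0.56 (adjusted p = 0.130), and without paused 4, its lowest, -0.60 (0.0950). The largest positive change was 39 bp from the start of Magoh, a gene of the exon junction complex (chr4:107879616-107879816), at 126.9 ± 15.8 and 163 ± 23.2 (log2 change 0.35, limma-trend adjusted p = 0.0569, called without control 4 at 0.0479, without paused 1 at 0.0293 and with a minimum of 50 at 0.0353).

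None of the start peaks of the acyl-CoA dehydrogenase genes passed the test. Their mean values over the 8 samples were 309 (Acadm), 119 (Acadl) and 169 (Acadvl), beside a median of 175 over all start peaks. Acadm encodes the medium-chain enzyme (chr3:153922353-153944643, minus strand). Its start peak (chr3:153944573-153944773) had 279, 278, 298 and 279 in the control samples and 298, 322, 358 and 358 in the paused samples. Paused 1 was level with control 3, and the other paused samples were higher. The log2 change was 0.23 (SE 0.10, limma-trend adjusted p = 0.131). A second peak inside the gene, 4393 bp from the start, was at 104 ± 16.3 and 119.97 ± 17.7 (SD, n = 4 each, log2 change 0.20), and no peak in the Acadm window passed the test. Its largest change, inside Slc44a5 (chr3:153980745-153980945), came with a low control 3: values were 59.8, 71.7, 23.7 and 45.5 against 71.5, 64.7, 65.2 and 74.98 (log2 change 0.56, limma-trend adjusted p = 0.0583, called without control 1 at 0.0338, without control 2 at 0.0102 and with a minimum of 50 at 0.0422).

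Acadl encodes the long-chain enzyme (chr1:66830839-66863309, minus strand). Its start peak was centred 281 bp downstream of the start (chr1:66862928-66863128). The control samples had 106, 118, 107 and 125 and the paused samples 119.97, 110.4, 137 and 132. The 2 ranges overlapped widely, with a log2 change of 0.13 (SE 0.13, limma-trend adjusted p = 0.529). The 2 peaks that rose in this window lay upstream, at its outer edge, nearest to Myl1, a myosin light chain gene of fast muscle. The stronger (chr1:66912402-66912602), 49193 bp from Acadl and 11793 bp from Myl1, had 67.4, 64.5, 74.5 and 88.2 in the control samples and 111, 114, 112 and 132 in the paused samples. All paused samples exceeded all controls, and the log2 change of 0.67 (SE 0.14, limma-trend adjusted p = 9.08e-04) was called under all 17 other settings (adjusted p between 8.89e-05 and 0.0190).

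The neighbouring peak (chr1:66911385-66911585) had only 11.1, 5.97, 8.47 and 11.8 in the control samples and 23.1, 12.6, 26.4 and 23.4 in the paused samples. The groups did not overlap (log2 change 1.11, SE 0.32, limma-trend adjusted p = 0.0166), on counts of 5 reads in 2 of the controls. With means of 9.31 and 21.4 it passed the minimum of 10 only through the paused samples, so its call and the size of its change are given as a description. Leaving out control 2 (adjusted p = 0.0538), paused 1 (0.0501), paused 3 (0.0576) or paused 4 (0.0615), or using DESeq2 (0.0917), lost the call. With a window of 10 kb, neither of the Myl1 peaks belongs to Acadl. The nearest peaks beyond the 50 kb limit of any gene, 50376 bp from Cpt1b, 51358 bp from Cpt1a and 52477 bp from Hadha, had log2 changes of 0.095, 0.17 and -0.38. Just inside it lay the stronger Myl1 peak, a peak 49275 bp from Cpt2 (0.13) and one 49389 bp from Acadvl (-0.24).

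Acadvl encodes the very-long-chain enzyme of the inner membrane (chr11:70010183-70015428, minus strand) and sits in a gene-dense stretch, where 17 of its 18 peaks were nearer to another gene. Its start peak (chr11:70015297-70015497) had 168, 155, 174 and 160.2 in the control samples and 193, 144, 163 and 198 in the paused samples. Paused 2 was the lowest of all 8 samples and paused 4 the highest, with a log2 change of 0.072 (SE 0.12, limma-trend adjusted p = 0.737). The strongest peak in the window, inside Dlg4, a gene of the postsynaptic density (chr11:70029533-70029733), was at 335 ± 26.9 and 392 ± 33.4 (SD, n = 4 each, log2 change 0.22, limma-trend adjusted p = 0.141). Another peak inside Dlg4 rose (chr11:70043787-70043987), with 58.8, 62.1, 32.2 and 44.1 in the control samples and 70.4, 74.1, 69.8 and 66.8 in the paused samples. All paused samples were higher, and control 3 and control 4 were the lowest of the controls (log2 change 0.55, limma-trend adjusted p = 0.0290). Its call was lost in 10 of 17 settings: without control 3 (log2 change 0.36, adjusted p = 0.157), control 4 (0.0710), paused 1 (0.0567), paused 2 (0.0703) or paused 4 (0.0541), with edgeR on the deposited factors (0.0649), and with the 4 other scalings (0.0919 to 0.394).

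Hadha encodes the alpha subunit of the trifunctional protein, which holds the hydratase and long-chain hydroxyacyl-CoA dehydrogenase activities (chr5:30119423-30154980, minus strand). It shares its promoter region with Hadhb, the gene of the beta subunit, which is transcribed the opposite way. The peak between the starts (chr5:30155069-30155269) was 189 bp from the Hadha start and 84 bp from that of Hadhb. Values were 141, 184, 151 and 182 in the control samples and 168, 185, 216 and 184 in the paused samples. Paused 3 was the highest of the 8 samples, paused 2 and paused 4 were level with control 2, and the log2 change was 0.20 (SE 0.12, limma-trend adjusted p = 0.284). The strongest peak of the window, inside Garem2 (chr5:30114503-30114703), had a log2 change of 0.34 from 302 ± 68.2 to 376 ± 34.1 (limma-trend adjusted p = 0.0501), and was called without control 2 (0.00321), without paused 2 (0.0483), with edgeR on the deposited factors (0.0357) and with a minimum of 50 (0.0385). The peak that rose, 10705 bp from 3110082J24Rik (chr5:30092779-30092979), had 92.0, 80.02, 74.5 and 82.3 in the control samples and 112, 106, 96.2 and 119.5 in the paused samples. The groups did not overlap, and the log2 change was 0.39 (SE 0.13, limma-trend adjusted p = 0.0432). It was lost in 10 of 17 settings: with the 4 other scalings (adjusted p = 0.157 to 0.393) and without any 1 of control 2, control 3, control 4, paused 1, paused 2 or paused 4 (0.0690 to 0.137).

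To compare the genes as wholes, the values of all peaks in a gene's window were added in each sample, giving 1 value per gene and sample. Neighbouring genes share peaks in such sums. Of the 8 genes, 6 had a higher sum in the paused samples and none a lower one, beside 49.5% of all 20406 genes higher and 0.706% lower (limma-trend on log2(sum + 1), adjusted over all genes). The median log2 change over all genes was 0.15, and 5 of the 8 were above it. Under 4 other scalings that median was between -0.0028 and 0.043, and of the 8 genes Pdk4 alone was called. All genes called higher were then 10.4% (limma-trend after TMM rescaling), 5.16% (after loess correction), 5.73% (edgeR with TMM) and 3.78% (DESeq2), and those lower 1.80%, 4.53%, 4.75% and 3.20%, so 1 of 8 is near the general share.

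The Pdk4 sum was 548, 535, 654 and 588 in the control samples and 655, 719, 855 and 792 in the paused samples. Every paused sample was above every control, although paused 1 exceeded control 3 by little. The means were 581 ± 53.4 and 755 ± 86.8 (SD, n = 4 each), and the log2 change was 0.38 (SE 0.077, limma-trend adjusted p = 6.57e-04). The change was at the 94.1 percentile of all genes, and peaks nearest to Pdk4 made up 86.4% of the sum. It was called under all 19 other settings tried for gene sums (log2 change 0.22 to 0.45, adjusted p 9.76e-07 to 0.0378).

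The next largest was Acadl, with 340.2, 337, 337 and 372 in the control samples and 398, 372, 425 and 456 in the paused samples. Paused 2 and control 4 were level and the rest were apart (log2 change 0.25, SE 0.079, limma-trend adjusted p = 0.0133). With a window of 10 kb, which leaves out the peaks near Myl1, the change was 0.036 (adjusted p = 0.823), and without paused 4 it was 0.20 (0.0700).

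The Hadha sum rose from 1162 ± 83.5 to 1332 ± 23.7 (log2 change 0.20, limma-trend adjusted p = 0.00433), that of Cpt1b from 1612 ± 90.2 to 1801 ± 27.4 (0.16, 0.00740), and that of Acadvl from 1911 ± 47.2 to 2128 ± 53.9 (0.16, 0.00477), with no overlap of the groups in any of the 3. The share of all genes without overlap of the groups was not computed. In these 3 windows the gene's own peaks made up between 3.38% (Hadha) and 8.39% (Acadvl) of the sum, so most of each sum came from peaks nearer to other genes. Counting only peaks nearest to the gene, the changes were 0.10 for Hadha, 0.25 for Cpt1b and 0.072 for Acadvl, none called (adjusted p = 0.704, 0.115 and 0.635). The Acadm sum, 1394 ± 72.6 and 1514 ± 33.8 (log2 change 0.12, limma-trend adjusted p = 0.0418), was lost without control 1 (0.082, adjusted p = 0.191), control 4 (0.0589), paused 2 (0.0706), paused 3 (0.0821) or paused 4 (0.0971). The 2 sums that did not pass were those of Cpt1a (1069.8 ± 68.6 and 1151 ± 38.1, 0.11, limma-trend adjusted p = 0.0997) and Cpt2 (708 ± 29.0 and 767 ± 44.1, 0.11, adjusted p = 0.116). Without paused 1 the Cpt2 sum was called (log2 change 0.16, limma-trend adjusted p = 0.0364).

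**Figure D3:**
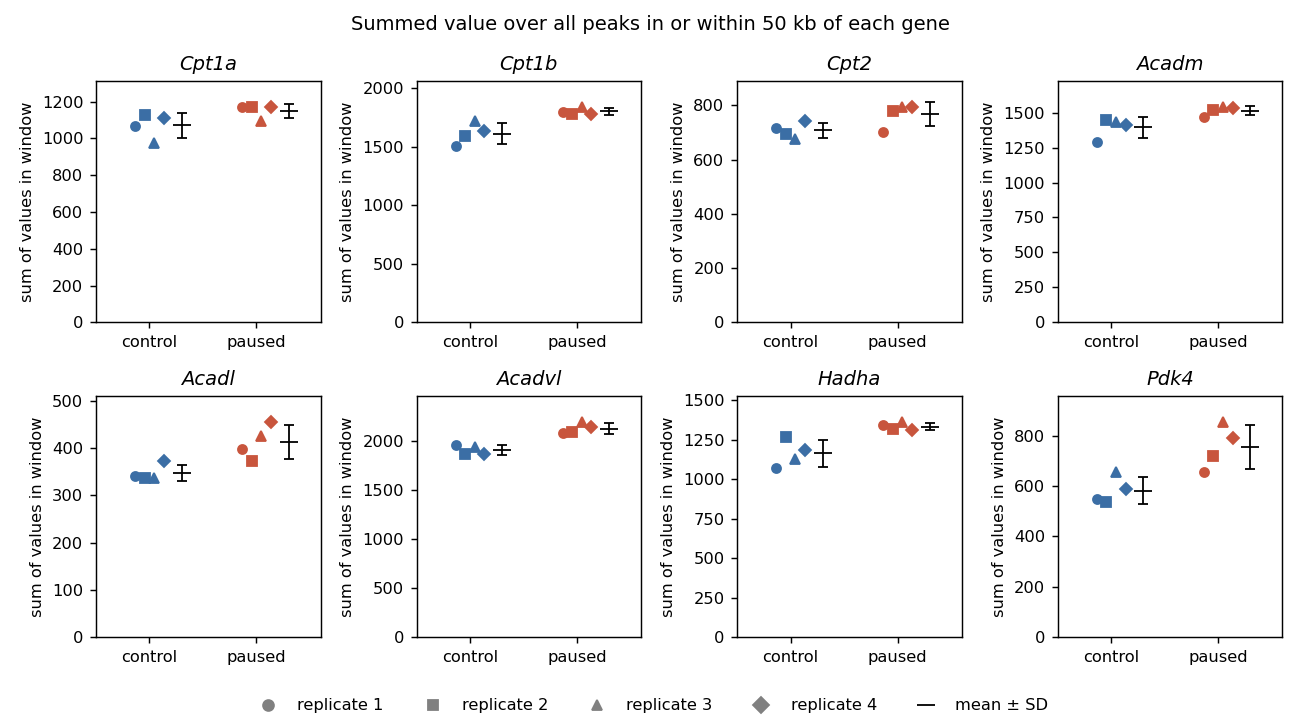
Deposited values added up over the window of each gene (its span and 50 kb to either side), in each control and paused sample, with the mean and SD; the vertical axes start at 0. Paused samples lie above all controls in 6 panels, and Cpt1a and Cpt2 overlap. The share of all genes with such separation was not computed, and 49.5% of all gene sums were called higher. The relative difference is largest for Pdk4, from a mean of 581 to 755.

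**Figure D4:**
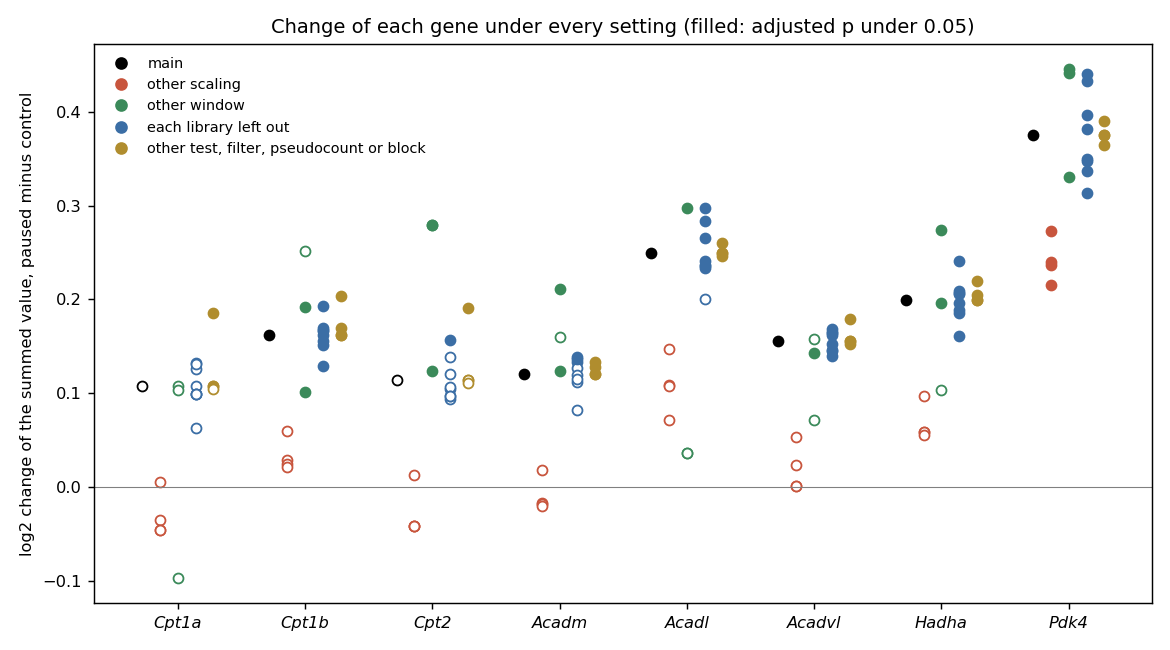
Log2 change of the summed value of each gene with the deposited values and with each other setting, filled where the adjusted p was under 0.05. Pdk4 is filled in every setting, between 0.22 and 0.45, while the other 7 genes are unfilled under the 4 other scalings, at 0.15 (Acadl) or lower.

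Other genes of fatty acid oxidation were read from a list of 54, grouped by role. Their windows held 808 peaks, 7 of them shared with the 8 genes above. Of the 771 tested, 74 were higher (9.60%) and 14 lower (1.82%), near the 11.0% and 2.91% of all peaks, with a median log2 change of 0.10. Of the 312 tested peaks whose nearest gene was listed, 38 were higher (12.2%) and 6 lower (1.92%). Summed values were higher in 34 of 54 genes and lower in none, with a median of 0.16 against 0.15 over all genes. Under the 4 other scalings 2 to 5 of the 54 were higher and 1 or 2 lower, beside 3.78% to 10.4% and 1.80% to 4.75% of all genes, which is near the general share. Of the 39 genes with a peak within 1 kb of the start, the strongest such peak rose in 6 and fell in none, beside 11.0% higher and 0.666% lower among all start peaks. The counts of summed values by role that follow stand beside 49.5% of all genes higher, and no test of a role was made.

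Among the pyruvate dehydrogenase kinases and phosphatases, the relatives of Pdk4, sums rose in 3 of 5 genes. Pdk1, a kinase gene best known as a hypoxia target, had the largest change of the list, from 753 ± 42.5 to 987 ± 78.1 (log2 change 0.39, limma-trend adjusted p = 8.85e-05), and its start peak also rose (0.31, limma-trend adjusted p = 0.0445). Pdk3 was at a log2 change of 0.24 and Pdp1 at 0.059, neither called. Among the 6 genes of fatty acid activation, which attach coenzyme A to fatty acids, 3 rose: Acsl1 from 914 ± 51.8 to 1150.1 ± 41.2 (0.33, limma-trend adjusted p = 9.56e-05), Acsl6 from 327 ± 8.38 to 409 ± 28.2 (0.32, limma-trend adjusted p = 0.00216) and Slc27a2 (0.14). Acsl3, Acsl4 and Acsl5 had changes between -0.033 and 0.010. Only Acsl1 and Pdk1 of the 54 were called higher under all 4 other scalings, at log2 changes of 0.18 to 0.29.

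In carnitine uptake and shuttle, sums rose in 4 of 5 genes, led by Slc22a5, the plasma membrane carnitine transporter (log2 change 0.28, limma-trend adjusted p = 5.04e-04), and Slc25a20, the carrier between CPT1 and CPT2 (0.25, adjusted p = 9.48e-04). The 3 called peaks of the Slc22a5 window had Slc22a5 as their nearest gene. The 3 of the Slc25a20 window lay nearer to other genes, and the Slc25a20 start peak was not called (0.33, limma-trend adjusted p = 0.0613). In the first dehydrogenase step the sums of 3 of 6 rose, in the later steps 5 of 8, in electron transfer 2 of 3 and in peroxisomal oxidation, which shortens very long chains, 9 of 12. Acad10 and Acad12, both among the 3 of the first step, are neighbours whose windows share peaks. The gene with the lowest change was the peroxisomal Hsd17b4, at 663 ± 53.9 and 613 ± 22.1 (log2 change -0.11, limma-trend adjusted p = 0.161), which was called lower under all 4 other scalings (log2 change -0.27 to -0.21, adjusted p 0.00776 to 0.0369). Of the regulators of CPT1 through malonyl-CoA, 2 of 3 rose. Of the 6 transcriptional regulators 3 rose, namely Pparg (0.27, limma-trend adjusted p = 0.00253), Ppara (0.22, adjusted p = 0.00220) and Esrra (0.11, adjusted p = 0.0383), while Ppargc1a (0.13), Ppard (0.037) and Ppargc1b (-0.015) did not pass.

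**Figure D5:**
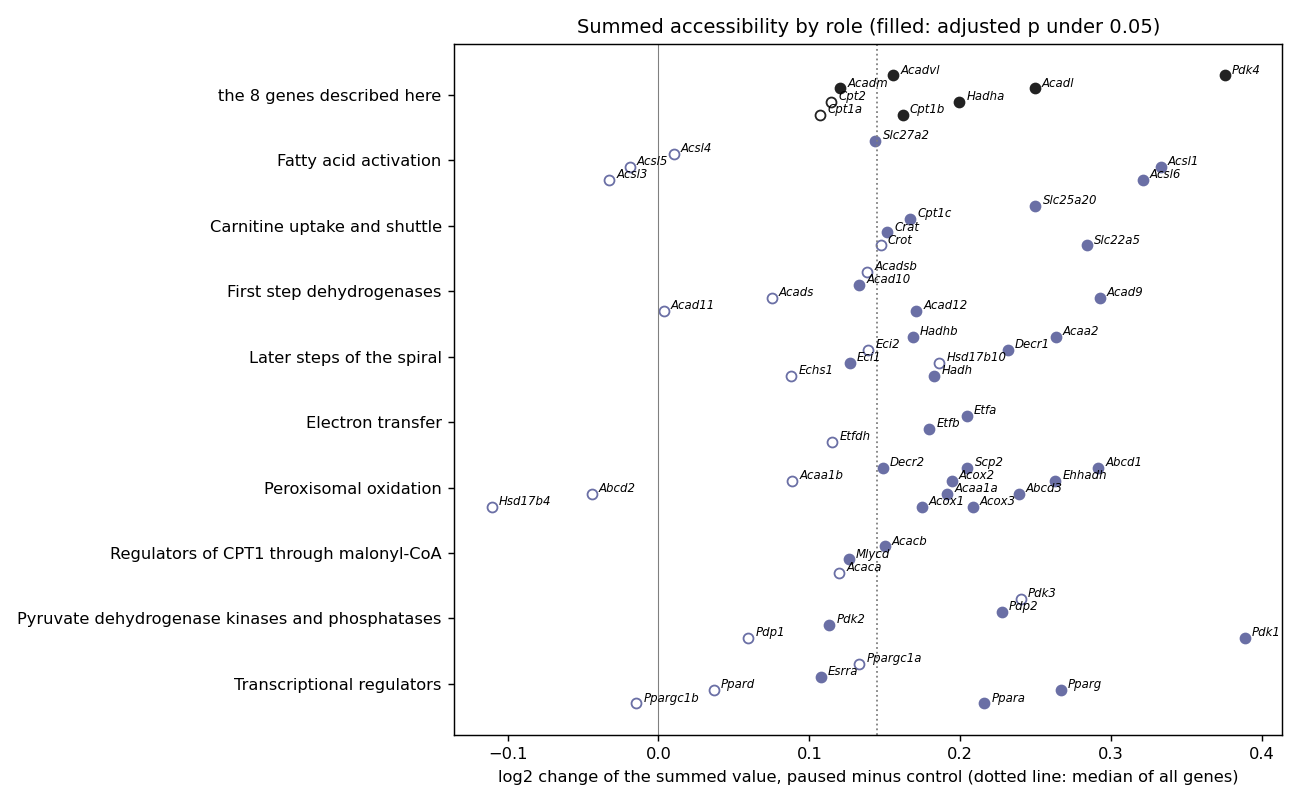
Log2 change of the summed value, paused minus control, for the 8 genes and the 54 other genes of the pathway by role, filled where the limma-trend adjusted p was under 0.05; the dotted line is the median of all genes, 0.15. Pdk4 and Pdk1 lie farthest to the right and Hsd17b4 farthest to the left, and most genes lie around the dotted line.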

How the data were processed

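The members and lists were chosen with earlier results of these data known. Reads were processed with FastQC, Trim Galore, Bowtie2 2.4.1, MACS3 3.0.3 and DiffBind 3.16.0 on mm10, per the submitters' processing notes. The authors deposited 1 table with a signal value per peak and library; each value was a whole read count divided by 1 factor per library (100% of values whole reads to within 0.005 of the printed value), so the reads could be recovered from the deposited signal. The table also holds the authors' log2 fold, p-value and false discovery rate per peak. Of the 10 called peaks around the 8 genes, that rate was above 0.05 near Gal (0.0807) and 3110082J24Rik (0.0802), and in Syce3 (0.0754) and Dlg4 (0.111). It was under 0.05 at both Pdk4 peaks, near Mapk8ip2 (5.25e-04), in Slc1a7 (0.0335) and at both Myl1 peaks (1.53e-04 and 0.0168). The Cpt2 start peak (0.0499) and a Tyms peak in the Hadha window (0.0315) were under it too, though uncalled here. Peaks were matched to genes of RefSeq GRCm38.p6, the assembly also called mm10.

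The main test was limma-trend (limma 3.58.1, R 4.3.3) on log2(value + 1), paused minus control, 4 libraries each, over peaks whose mean over the 8 libraries reached 10, and on log2(sum + 1) per gene, adjusted by Benjamini-Hochberg. Folds on this scale understate the change of weak peaks. Alternatives were a pseudocount of 0.1, no minimum or 50, TMM and loess rescaling, the replicate number as a block, count tests on the recovered reads (edgeR 4.0.16, DESeq2 1.42.0), each library left out, and windows of 10 kb, 100 kb or the nearest gene. On simulated counts with 200 peaks changed by 1 on the log2 scale, limma-trend recovered 49.0% of them, and none of 200 changed by 0.5. For gene sums it recovered 97.0% and 25.0%. Only those 200 were changed, up and down in equal number and with a fixed dispersion, while 17660 peaks were called with the deposited values. The adjustment is stricter when few peaks change, so these shares do not give the power of the test here. Replicates of a group differed beyond sampling noise (chi-square per degree of freedom 1.09 to 1.68). Named for each gene were peaks within 1 kb of its start, the strongest peak, called peaks, and those with the largest and smallest change.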

Additional observations from a re-analysis of the deposited data

Results flagged for a closer look

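In 6 of 78 groups of 4 samples examined, 1 sample stood apart from the other 3 by a gap above Dixon's critical value for 4 samples, which chance passes in about 1 group in 20. At the Cpt1b end peak (chr15:89416893-89417093), paused 1 had 38.1 and the other paused samples 24.6 to 25.2. At the Slc1a7 peak in the Cpt2 window (chr4:107969839-107970039), paused 4 had 16.4 and the others 24.2 to 25.2. At the Acadm start peak, control 3 had 298 and the others 278 to 279. At the stronger peak near Myl1 in the Acadl window (chr1:66912402-66912602), paused 4 had 132 and the others 111 to 114. The Cpt1a sum was 1094 in paused 3 and 1169 to 1171 in the other paused samples. The Acadl sum was 372 in control 4 and 337 to 340.2 in the other controls.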

How the results depend on the processing

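With the deposited values, 79.0% of the called peaks of the whole table were higher. This share was 59.1% after TMM rescaling, 59.3% after loess correction, 56.3% with edgeR and TMM, 67.3% with DESeq2 and 93.1% with a minimum of 50. The count tests on recovered reads called 16424 peaks higher and 4621 lower with the deposited factors, 9084 and 7058 with TMM, and 3902 and 1892 with DESeq2, beside 13958 and 3702. The median of all tested peaks moved from 0.10 to 0.0013, -0.011, -0.0077 and -0.0057 under the 4 other scalings (TMM, loess, edgeR with TMM, DESeq2).

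Around the 8 genes, the 8 higher peaks became 4, 3, 4 and 3 under those scalings in that order, 13 with a minimum of 50, 3 with a 10 kb window, 2 by nearest gene only, and 4 to 9 with 1 library left out. The 2 lower peaks became 5, 4, 4 and 1, then 0 with a minimum of 50, 0 at 10 kb, 4 at 100 kb, 0 by nearest gene, and 0 to 3 with 1 library left out. For the pathway list, the 74 higher became 36, 24, 40 and 12, with 39 at 10 kb and 51 to 78 without 1 library. Its 14 lower became 25 after TMM, 38 with edgeR and TMM, 24 with edgeR on the deposited factors, 8 with DESeq2, 3 with a minimum of 50, 5 at 10 kb and 7 to 21 without 1 library. The cause of these shifts was not tested.

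The log2 changes of gene sums, in the same order of scalings, were 0.060, 0.029, 0.024 and 0.021 for Cpt1b, 0.018, -0.017, -0.019 and -0.021 for Acadm, 0.15, 0.071, 0.11 and 0.11 for Acadl, 0.053, 0.024, 0.0013 and 8.54e-04 for Acadvl, and 0.097, 0.058, 0.058 and 0.055 for Hadha, all uncalled. After loess, with edgeR and TMM, and with DESeq2, Cpt1a was at -0.036, -0.046 and -0.046 and Cpt2 at -0.042, -0.042 and -0.042. By nearest gene only, Cpt1a was at -0.097, Cpt1b at 0.25, Acadl at 0.036, Acadvl at 0.072 and Hadha at 0.10, uncalled, and Cpt2 at 0.28, called. With a minimum of 50, Cpt1a (0.19) and Cpt2 (0.19) were called. At 10 kb, Acadm (0.16), Acadl (0.036) and Acadvl (0.16) lost the call and Cpt2 (0.28) gained it, as it did at 100 kb (0.12). Leaving out 1 library gave 0.063 to 0.13 for Cpt1a, 0.093 to 0.16 for Cpt2, 0.082 to 0.14 for Acadm and 0.20 to 0.30 for Acadl. Gene sums use no minimum unless stated, so leaving it out could not change them.

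Of the 31 named peaks, which alone were followed singly across settings, 5 changed sign, all uncalled: the Tymp peak in the Cpt1b window after loess (-0.038), the Acadl start peak after loess (-0.070), the Hadha start peak after loess (-0.0087), the Acadvl start peak under the 4 scalings (-0.030, -0.13, -0.012 and -0.014) and the Kansl1l peak in the Acadl window likewise (-0.084, -0.18, -0.10 and -0.10), between -0.019 and 0.069 with 1 library left out.

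Replicate numbers were not used to pair the samples in the main test. Deviations of same-numbered libraries from their group means correlated weakly, at 0.079, 0.036, 0.133 and 0.039 (different numbers -0.105 to 0.070). Of the 8 libraries, 6 correlated best with their own number, a hint of pairing from the data. With the replicate block, the peaks around the 8 genes were 15 higher and 4 lower, those of the pathway list 98 and 21, and the Cpt1a sum (0.11) was called at adjusted p = 0.0440, as were the Cpt2 start peak (0.0373) and the peaks near Tesmin (0.0440), Magoh (0.0315), Slc44a5 (0.0263) and Garem2 (0.0199). Depth limits the weak peaks: 3 reads are worth 5.08 in control 3.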
